A study of Homo sapiens with 27 samples.

Results

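The genes described here are the 7 subunits of respiratory complex I that are encoded by mitochondrial DNA: MT-ND1, MT-ND2, MT-ND3, MT-ND4, MT-ND4L, MT-ND5 and MT-ND6. They were taken by Ensembl gene identifier from the deposited count table, and all 7 were found among its 14008 genes. The table also holds the other 6 messenger genes of mitochondrial DNA. The libraries are QuantSeq 3' RNA-seq of teloHAEC, a telomerase-immortalised line of human aortic endothelial cells, collected 2 days after Cas9 ribonucleoprotein was electroporated into 150000 cells per replicate.

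Experiment set A holds 4 libraries with guides flanking a candidate enhancer of SMAD3 (SMAD3 deletion), 4 with the guide against HPRT (HPRT A) and 4 with the non-targeting guide (negative control A). Set B holds 4 libraries with guides flanking a candidate enhancer of LDAH, earlier C2orf43 (LDAH deletion), 4 with the HPRT guide (HPRT B) and 7 with the non-targeting guide (negative control B). All 27 libraries received Cas9 protein and electroporation, the controls included. The protocol names no cloning step, so a library can hold edited and unedited cells, whose shares were not analysed here. Whether replicates trace back to different starting cultures is not stated, and the p-values therefore cover only variation among these libraries, which may be technical.

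Complex I, the NADH dehydrogenase of the inner mitochondrial membrane, passes electrons from NADH to ubiquinone and pumps protons. Its mitochondrially encoded subunits form the core of the membrane arm: MT-ND2, MT-ND4 and MT-ND5 are the antiporter-like proton-pumping subunits, MT-ND1 joins the membrane arm to the arm that holds the iron-sulphur clusters, and MT-ND3, MT-ND4L and MT-ND6 are smaller subunits beside it. The remaining subunits are encoded in the nucleus. Mitochondrial messengers are cut from long transcripts of each strand, so that genes that share a precursor can still differ in the stability of their mature messengers. MT-ND4L and MT-ND4 stay together on 1 bicistronic messenger, and MT-ND6 is the only one of the 7 read from the light strand.

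QuantSeq counts tags next to the 3' end of RNA primed with oligo(dT), so where these messengers end matters for what was counted. The annotated end of a gene need not be the end of its messenger, and that of MT-ND4L lies inside the bicistronic messenger. Where each messenger ended was not analysed. The last 24 bases of each gene are shown 5' to 3' on the coding strand, from the GENCODE transcripts of the human mitochondrial genome in GRCh38. Capitals mark the stop codon or the part of it that is encoded, since several human mitochondrial stop codons are completed only by the poly(A) tail.
MT-ND1: ctccagcattccccctcaaaccTA
MT-ND2: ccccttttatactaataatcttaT
MT-ND3: aaaaaggattagactgaaccgaaT
MT-ND4: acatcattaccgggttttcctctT
MT-ND4L: aacctaaacctactccaatgcTAA
MT-ND5: ctaaccctactcctaatcacaTAA
MT-ND6: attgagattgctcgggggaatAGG
MT-ND1 ends in 2 encoded bases of its stop codon, while MT-ND2, MT-ND3 and MT-ND4 each end in 1. MT-ND4L and MT-ND5 carry a whole TAA, and MT-ND6 ends in AGG. The genes lie on chromosome MT of GRCh38, each as a single exon without an intron. MT-ND1 spans 3307 to 4262, MT-ND2 4470 to 5511, MT-ND3 10059 to 10404, MT-ND4L 10470 to 10766, MT-ND4 10760 to 12137 and MT-ND5 12337 to 14148, all on the plus strand. MT-ND6 lies on the minus strand from 14149 to 14673, directly after the annotated end of MT-ND5.

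The end of MT-ND4L and the start of MT-ND4 share 7 bases, in capitals in the first of the following sequences, which is shown because the counts of this pair separate libraries in the results. The second sequence shows, in capitals, a run of 6 A that starts at base 55 of MT-ND4 and ends 53 bases past the end of MT-ND4L.
MT-ND4L to MT-ND4: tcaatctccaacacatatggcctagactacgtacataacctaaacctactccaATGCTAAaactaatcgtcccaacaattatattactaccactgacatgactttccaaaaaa
MT-ND4 stretch: tgacatgactttccAAAAAAcacataattt
Where within a gene the reads lay was not analysed here, since the table gives 1 count per gene. MT-ND6 holds fewer A than the others, 19.6% of its bases against 28.3% to 31.3%, and its longest A run is 3, as in MT-ND4L. GENCODE 29 lists 215 nuclear pseudogenes of the MT-ND genes. The table has 0 rows for them, and how the authors' counting treated reads that match both a member and such a copy is not given in the sources used here. The same holds for strand, so tags of MT-ND6 and tags from the opposite strand of its span cannot be told apart.

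Total counts ran from 3430481 to 7752413 per library. Levels are given as CPM (read counts relative to library total, scaled with TMM factors). The 7 members together gave 19814 to 82857 counts per library. MT-ND6 was counted 42 to 442 times and every other member at least 1592 times, so counting error matters mainly for MT-ND6. All 14 endothelial markers checked were in the table, PECAM1 at 165 to 563 CPM and CDH5 at 107 to 403 CPM, while VWF was near 0 (0 to 6.72 CPM). Of the markers of other cell types, 0 of 5 epithelial, 1 of 5 blood (CD68) and 1 of 7 smooth muscle and fibroblast genes (ACTA2) had a row. Edited targets were not called by edgeR, each group against its negative control. SMAD3 had a log2 fold change of -0.44 ± 0.14 (SE) in the SMAD3 deletion, and LDAH had -0.76 ± 0.40 in the LDAH deletion. HPRT1 had -0.33 ± 0.21 in HPRT A and -0.23 ± 0.33 in HPRT B.

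In 7 libraries, expression across genes correlated less with the rest of their set: SMAD3 deletion replicate 4, HPRT A replicate 3, LDAH deletion replicate 4, HPRT B replicates 2 and 4, and negative control B replicates 6 and 7. They are called the libraries that stand apart. Their share of counts from cytosolic ribosomal protein genes was 14.96% to 17.4%, against 9.42% to 14.6% in the other 20. The summed level of the 14 endothelial markers was 1186 to 1614 CPM in them and 1996 to 2488 CPM in the others. The part of either measure in the results was not tested. Each result is therefore given with and without these libraries where it rests on them. The 7 libraries were picked by the same expression values, members included, so fits without them can hold less spread by that choice. The SE and adjusted p of such fits may be too small.

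Per library, the members took 0.387% to 1.28% of all counts. In libraries that do not stand apart this was 0.800% to 1.28% for the 10 of set A, against 0.485% to 0.840% for the 10 of set B. Per kilobase of gene, MT-ND3 had the highest mean level and MT-ND6 the lowest in each of the 6 groups. In negative control A the order was MT-ND3 at 6782 ± 1130 CPM per kilobase (SD, n = 4), MT-ND4L at 2887 ± 89.2, MT-ND4 at 2173 ± 336, MT-ND2 at 2046 ± 109, MT-ND1 at 1529 ± 168, MT-ND5 at 357 ± 67.4 and MT-ND6 at 65.4 ± 44.7 CPM per kilobase. MT-ND4 and MT-ND2, neighbours in that order, did not differ beyond their SDs. In negative control B (n = 7), MT-ND3 stood at 3026 ± 649 CPM per kilobase, followed by MT-ND4L at 1660 ± 794 and MT-ND2 at 1600 ± 199. There MT-ND4L and MT-ND2 did not differ beyond their SDs, nor did MT-ND4 and MT-ND1, at 689 ± 241 and 588 ± 120 CPM per kilobase. A 3' tag method counts a messenger about once whatever its length, so division by length raises short genes. In CPM not divided by length, the highest mean was that of MT-ND4 in negative control A (2994 CPM) and HPRT A (2952 CPM) and that of MT-ND2 in the other 4 groups, while MT-ND6 was lowest in all 6.

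**Figure D1:**
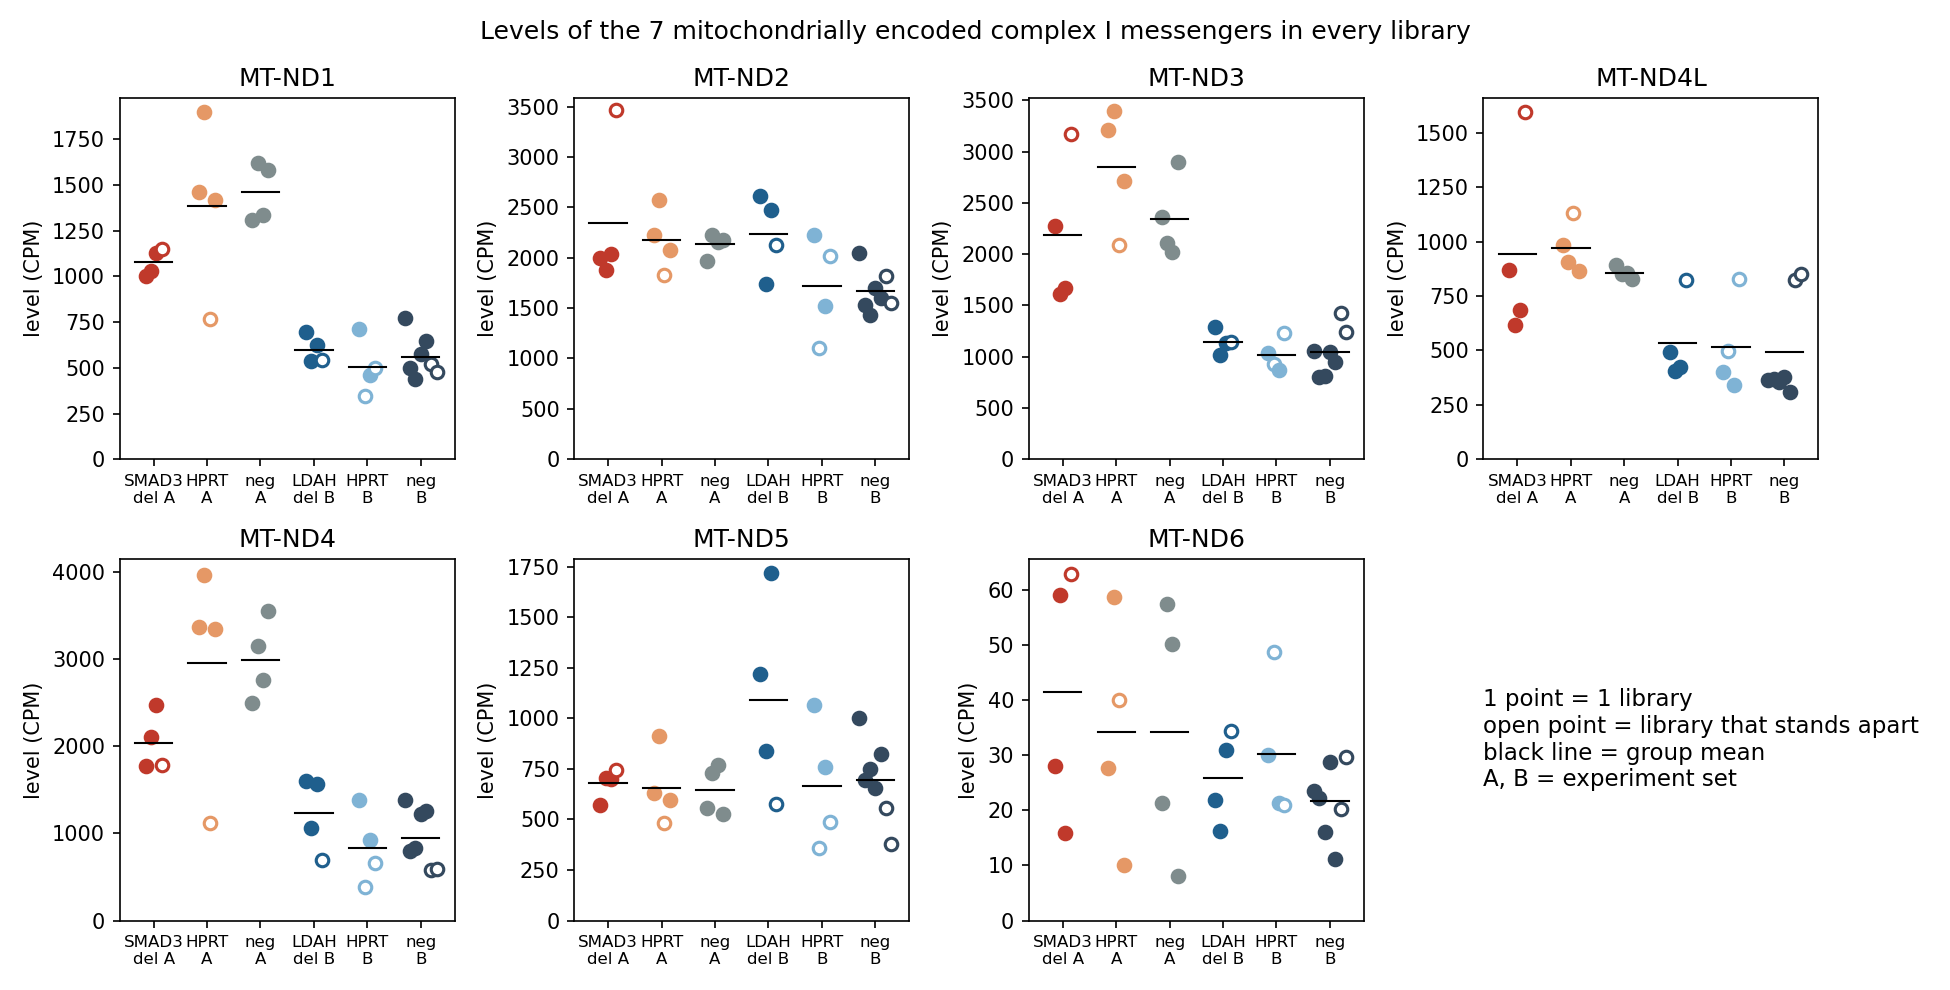
Level in CPM (vertical axis, from 0) of each of the 7 genes in every library, by group. Points are libraries, open points are the 7 libraries that stand apart, and black lines are group means. MT-ND1, MT-ND3 and MT-ND4 sit lower in set B than in set A, while MT-ND5 does not.

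Among the comparisons made with all libraries, that between the experiment sets gave the largest differences for MT-ND1, MT-ND3 and MT-ND4. The sets hold the same 2 control treatments, so the non-targeting libraries of set B were compared with those of set A. The set and all handling that goes with it cannot be told apart. In these bulk samples, a smaller share of cells that hold these RNAs and less of them per cell cannot be told apart either.

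MT-ND4, a proton-pumping subunit gene, stood at 2498, 3156, 2765 and 3558 CPM in negative control A replicates 1 to 4. In negative control B it ran from 577 CPM through a median of 831 to 1383 CPM. All 7 libraries of set B lay below all 4 of set A, and the log2 fold change was -1.66 ± 0.31 (SE; edgeR adjusted p = 0.000836). MT-ND1, the gene of the subunit at the junction of the arms, stood at 1310, 1618, 1336 and 1582 CPM in negative control A and between 440 and 772 CPM (median 522) in negative control B. These groups did not overlap either, and the log2 fold change was -1.38 ± 0.19 (edgeR adjusted p = 2.3e-05).

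MT-ND3, whose product lies beside the ubiquinone site, stood at 2358, 2111, 2024 and 2893 CPM in negative control A and between 805 and 1422 CPM (median 1043) in negative control B. Again every library of set B was lower. The log2 fold change was -1.16 ± 0.18 (edgeR adjusted p = 9.2e-05). These 3 of the 7 members were called, all lower in set B, where 9.60% of all 12055 genes tested were called, 4.49% lower and 5.11% higher. Over all genes, 11.9% did not overlap between these groups and 6.69% were lower without overlap.

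The other members had smaller differences between the sets. MT-ND4L had -0.80 ± 0.29 (edgeR adjusted p = 0.0860), MT-ND2 -0.35 ± 0.17 (adjusted p = 0.221) and MT-ND6 -0.66 ± 0.44 (adjusted p = 0.423), and their groups overlapped. MT-ND5, the gene of the proton-pumping subunit at the far end of the membrane arm, had 0.10 ± 0.28 (95% interval -0.47 to 0.67), with 528 to 771 CPM in negative control A, inside the 377 to 999 CPM of negative control B. The median of the 7 log2 fold changes was -0.80, and that of all genes tested was 0.02. Without the libraries that stand apart (4 against 5), MT-ND4L had -1.27 ± 0.09 (edgeR adjusted p = 6.6e-11) and MT-ND2 -0.36 ± 0.11 (adjusted p = 0.0169), so that 5 members were called lower, where 13.5% of 12366 genes were. MT-ND5 then had 0.28 ± 0.16 (adjusted p = 0.206). MT-ND4L was also called when negative control B replicate 6 alone (-0.97, edgeR adjusted p = 0.0315) or replicate 7 alone (-0.98, adjusted p = 0.0242) was left out.

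Of the other 6 mitochondrial messengers, 4 were called lower in set B by the same test: MT-CYB of complex III (-1.35 ± 0.23), MT-CO2 and MT-CO3 of complex IV (-1.43 ± 0.25 and -0.69 ± 0.18) and MT-ATP6 of the ATP synthase (-1.55 ± 0.36). MT-ATP8, another ATP synthase gene, had -0.54 ± 0.40, and MT-CO1, the catalytic subunit gene of complex IV, had -0.02 ± 0.18. Among 37 nuclear complex I subunits, 4 were called lower and 1 higher, with a median of -0.10. The shares called in this list and in those of assembly and RNA processing are read against the 9.60% of all genes, and nothing particular to the lists is drawn from them. NDUFA1, an accessory subunit, had -1.01 ± 0.20 (edgeR adjusted p = 0.00175). NDUFS7, which carries an iron-sulphur cluster and is named here after its values were seen because it alone was called higher, had 0.98 ± 0.20 (edgeR adjusted p = 0.00236). Of the 18 assembly factors 1 was called, NDUFAF8, at -0.84 ± 0.12 (edgeR adjusted p = 3.4e-05). Of the 21 genes of mitochondrial RNA processing and stability, FASTK, whose mitochondrial form is known to maintain MT-ND6 messenger, was called higher (0.97 ± 0.21, edgeR adjusted p = 0.00348) and FASTKD5, which helps to process mitochondrial precursors, lower (-0.93 ± 0.18, adjusted p = 0.000957). Of 79 cytosolic ribosomal protein genes, 16 were called lower and 0 higher, and their part in these differences was not tested. Among the 9 mitochondrial transcription genes, 0 were called.

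The make-up of the members' counts, which does not depend on how a library is scaled, differed between the sets as well. In libraries that do not stand apart, the share of MT-ND5 was 4.56% to 8.80% for set A but 11.7% to 21.6% for set B. MT-ND2 gave 20.8% ± 2.05 and 31.2% ± 1.27 (mean and SD, n = 10 each). For both genes the 10 libraries of set A all lay below the 10 of set B. For MT-ND4 the shares of 20.8% to 30.7% (A) and 16.9% to 22.4% (B) overlapped. For MT-ND3 those of 19.2% to 26.9% (A) and 14.2% to 18.6% (B) did not. These libraries had 1.58 ± 0.221 MT-ND2 counts per MT-ND1 count (SD, n = 10) for set A, against 3.18 ± 0.449 for set B. These ranges were read off after the values were seen and carry no test.

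**Figure D2:**
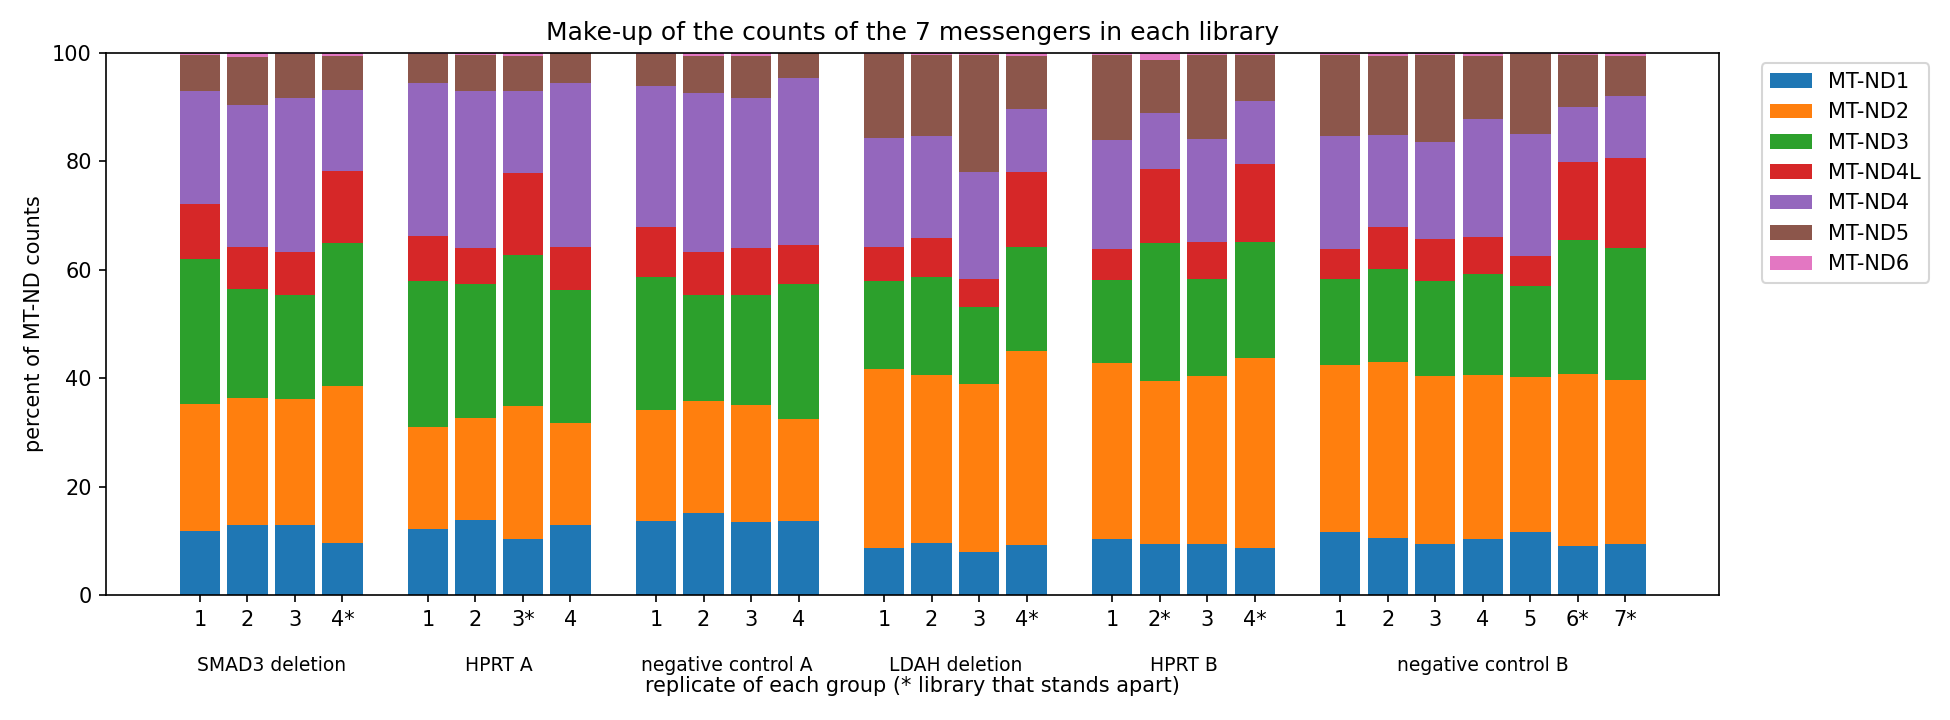
Share in percent (vertical axis) of each of the 7 genes in their summed counts, 1 bar per library, by group and replicate. An asterisk marks a library that stands apart. MT-ND5 and MT-ND2 take larger shares in set B, and MT-ND4L takes 13.3% to 16.6% in the marked libraries against 5.29% to 10.2% in the others.

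The libraries that stand apart held a different balance between the 2 genes of the bicistronic messenger shown above. In the 7 libraries, MT-ND4L had 0.890 to 1.45 counts per MT-ND4 count. In the other 20 it had 0.228 to 0.490. The ranges did not overlap, and the 7 libraries come from 5 of the 6 groups. As these libraries were set apart by their expression across genes, members included, the comparison is a description and carries no test.

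In set A, the ratio of MT-ND4L to MT-ND4 counts was 0.890 in SMAD3 deletion replicate 4 and 1.005 in HPRT A replicate 3, while SMAD3 deletion replicate 1, the highest of the others, had 0.490. In set B it was 1.19 in LDAH deletion replicate 4, 1.30 and 1.25 in HPRT B replicates 2 and 4, and 1.43 and 1.45 in negative control B replicates 6 and 7. The highest ratio among the other libraries of set B was 0.463, in negative control B replicate 2.

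The counts assigned to both genes differed. As the 2 genes share 1 messenger and read positions were not analysed, their CPM are values per gene, not levels of separate messengers. MT-ND4L stood at 1595 and 1129 CPM in the 2 libraries of set A that stand apart, above the 618 to 985 CPM of the other 10, a mean log2 difference of 0.69. In set B it stood at 498 to 851 CPM against 308 to 490 CPM, a difference of 0.98 with no overlap. MT-ND4 stood at 1791 and 1124 CPM against 1774 to 3969 CPM in set A, a difference of -0.99 with an overlap, and at 382 to 692 CPM against 795 to 1599 CPM in set B, a difference of -1.04 with none.

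MT-ND5 was at 357 to 577 CPM in the 5 libraries of set B that stand apart and 654 to 1718 CPM in the other 10, a log2 difference of -0.98 with no overlap. In set A, MT-ND5 had a log2 difference of -0.14 with an overlap. MT-ND1, MT-ND2, MT-ND3 and MT-ND6 overlapped in both sets, with differences from -0.52 (MT-ND1, set A) to 0.87 (MT-ND6, set A). Over all genes tested, 30.0% in set A and 19.4% in set B did not overlap between the libraries that stand apart and the others. MT-ND3 per MT-ND4 count separated the same libraries, with 1.65 to 2.46 against 0.669 to 1.28.

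**Figure D3:**
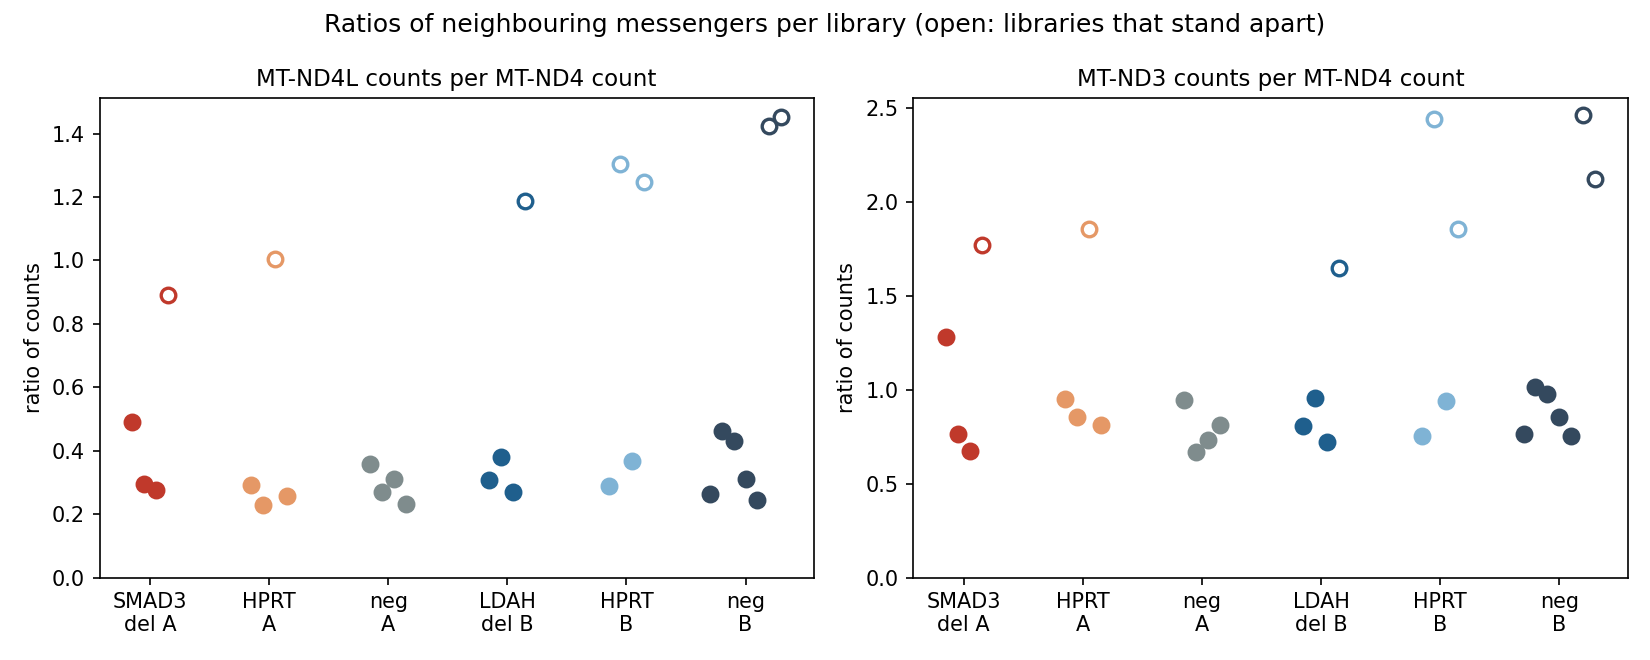
Ratio of MT-ND4L to MT-ND4 counts (left, no unit) and of MT-ND3 to MT-ND4 counts (right, no unit) in every library by group; open points are the 7 libraries that stand apart. Every open point lies above every filled point in both panels, at 0.890 to 1.45 against 0.228 to 0.490 on the left.

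The members made up 45.8% to 52.8% of the counts of the 13 mitochondrial messengers in the libraries that stand apart and 39.1% to 46.6% in the others. Across all counts, their share was 0.387% to 1.14% and 0.485% to 1.28%. The summed level thus overlapped. So did MT-ND2 per MT-ND1 count, at 2.38 to 4.05 against 1.36 to 3.94, and MT-ND5 per MT-ND4 count, at 0.416 to 0.963 against 0.148 to 1.09.

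For the SMAD3 enhancer deletion (SMAD3 is a transcription factor that carries TGF-beta signals to the nucleus), 0 of the 7 members were called against negative control A by edgeR, DESeq2 or limma voom with sample quality weights. By edgeR 0% of all 11467 genes were called at an adjusted p of 0.05, and 6.78% had an unadjusted p under it, as did 1 of the 7 members. Of these genes DESeq2 called 14 and voom 2. MT-ND1 stood at 1001, 1031, 1127 and 1148 CPM in the deletion libraries and at 1310, 1618, 1336 and 1582 CPM in negative control A. All 4 deletion libraries were lower, the log2 fold change was -0.43 ± 0.20 (95% interval -0.85 to -0.01; edgeR adjusted p = 0.730), and a two-sided exact permutation test gave p = 0.0286, its minimum with 70 arrangements.

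MT-ND4 showed the same order. It stood at 1774, 2102, 2480 and 1791 CPM in the deletion libraries and at 2498, 3156, 2765 and 3558 CPM in the control. The highest deletion library lay just below the lowest control library. The log2 fold change was -0.55 ± 0.28 (95% interval -1.14 to 0.05; edgeR adjusted p = 0.734), with an exact permutation p of 0.0286. These 2 of the 7 members did not overlap between the groups, both lower in the deletion, where 5.44% of all genes did not overlap and 2.85% were lower without overlap.

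The other 5 members overlapped between SMAD3 deletion and negative control A. MT-ND2 stood at 1998, 1878, 2033 and 3467 CPM in the deletion libraries, so that replicate 4 alone lay above the 1968 to 2229 CPM of the control. Its log2 fold change was 0.15 ± 0.17, and -0.11 ± 0.08 without the libraries that stand apart. MT-ND4L stood at 869, 618, 685 and 1595 CPM against 830 to 893 CPM, with 0.15 ± 0.23 in all libraries and -0.24 ± 0.10 without those that stand apart. MT-ND3 had -0.09 ± 0.21, MT-ND5 0.09 ± 0.18 and MT-ND6 0.28 ± 0.57. The median over the members was 0.09 with all libraries and -0.24 without those that stand apart, which here removes replicate 4 of the deletion from this comparison. In that fit MT-ND1 had -0.47 ± 0.11 (edgeR adjusted p = 0.103) and MT-ND4 -0.49 ± 0.12 (adjusted p = 0.121). There 0 members were called, with 0.00864% of all genes called. An unadjusted p under 0.05 was reached by 4 members. The share of all genes that reached it was not worked out for this fit, so nothing is drawn from that count.

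Set against HPRT A, whose guide also cuts the genome, the SMAD3 deletion again had 0 of 7 members called by edgeR with all libraries, where 0% of genes were called and 5.83% had an unadjusted p under 0.05 (0 members). DESeq2 and limma voom with sample quality weights called 0 members as well, where they called 17 and 5 of 11467 genes. MT-ND4 stood at 3366, 3969, 1124 and 3347 CPM in HPRT A replicates 1 to 4, and replicate 3, which stands apart, was below every SMAD3 deletion library. All 7 members overlapped between these groups, where 3.41% of genes did not. MT-ND1 followed the same order, at 1460, 1899, 770 and 1416 CPM. The log2 fold changes were -0.52 ± 0.28 for MT-ND4, -0.35 ± 0.20 for MT-ND1 and -0.37 ± 0.21 for MT-ND3.

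Without the libraries that stand apart, the comparison is of 3 libraries with 3. As those left out were picked by the same expression values, the adjusted p of this fit may be too small. MT-ND4 then had -0.74 ± 0.13 (edgeR adjusted p = 0.0192), MT-ND3 -0.73 ± 0.14 (adjusted p = 0.0283) and MT-ND1 -0.59 ± 0.11 (adjusted p = 0.0296). These 3 of 7 members were called lower, where 0.475% of 11574 genes were called and 0.328% were called lower. MT-ND4L had -0.33 ± 0.11 (adjusted p = 0.148) and MT-ND2 -0.21 ± 0.09 (adjusted p = 0.298). MT-ND5 had -0.10 ± 0.15 and MT-ND6 0.08 ± 0.53. The calls rest on leaving out both SMAD3 deletion replicate 4 and HPRT A replicate 3, since leaving out any single library of set A gave 0 called members. This comparison and the one with negative control A share the SMAD3 deletion libraries.

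Related genes were described in the same SMAD3 deletion comparison with negative control A, where edgeR called 0 of them. Of the other 6 mitochondrial messengers, 4 had negative log2 fold changes, and the median was -0.30 against 0.00 for all genes. MT-ATP6 had -0.52 ± 0.26, MT-CO2 -0.35 ± 0.19, MT-CYB -0.37 ± 0.23 and MT-CO3 -0.24 ± 0.15. The 37 nuclear complex I subunits had 19 positive and 18 negative values and a median of 0.01. Those with the smallest p were NDUFA1 (-0.25 ± 0.11), NDUFV3 (-0.26 ± 0.11), NDUFB7 (0.60 ± 0.27) and NDUFA12 (-0.28 ± 0.14), with edgeR adjusted p from 0.730 to 0.734.

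The 18 assembly factors of complex I had a median of -0.06, and FOXRED1 among them had -0.33 ± 0.22. The 9 genes of mitochondrial transcription had a median of -0.06. POLRMT, the mitochondrial RNA polymerase, had -0.40 ± 0.21, TFB1M, a ribosomal RNA methyltransferase, -0.37 ± 0.16, and TFAM, which packages and transcribes mitochondrial DNA, 0.15 ± 0.11. The 21 genes of mitochondrial RNA processing and stability had 8 positive and 13 negative values and a median of -0.02. FASTK, with the smallest p among them, had 0.63 ± 0.19 (edgeR adjusted p = 0.702). The 13 genes of mitochondrial DNA maintenance had 5 positive and 8 negative values and a median of -0.04. The ribonucleotide reductase subunit RRM2B, with the smallest p there, had 0.53 ± 0.19 (adjusted p = 0.702).

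For the LDAH enhancer deletion, whose target encodes a lipid droplet associated hydrolase, 0 of 7 members were called against negative control B by edgeR, DESeq2 or limma voom with sample quality weights. By edgeR 0% of all 11769 genes were called, and 4.61% had an unadjusted p under 0.05, as did 1 of the 7 members. Of these genes DESeq2 called 14, all lower, and voom 0. All 7 had positive log2 fold changes, from 0.09 (MT-ND1) to 0.64 (MT-ND5), with a median of 0.25 against 0.01 for all genes. The members were measured in the same libraries, and all but MT-ND6 are cut from transcripts of the same strand, so their signs are not independent of one another.

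MT-ND2, a proton-pumping subunit gene, stood at 2616, 1738, 2471 and 2126 CPM in LDAH deletion replicates 1 to 4. Negative control B ran from 1432 CPM through a median of 1599 to 2044 CPM. Replicates 1, 3 and 4 lay above all 7 control libraries, and replicate 2 lay within them. The log2 fold change was 0.42 ± 0.18 (95% interval 0.05 to 0.79; edgeR adjusted p = 1.00), and the two-sided exact permutation p was 0.0152, where 330 arrangements allow 0.00303 at the least.

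MT-ND5 stood at 1219, 838, 1718 and 577 CPM in the deletion libraries and ran from 377 CPM through 695 to 999 CPM in the control. Replicates 1 and 3 were above every control library, and replicate 4, which stands apart, was below the control median. The log2 fold change was 0.64 ± 0.31 (edgeR adjusted p = 1.00, exact permutation p = 0.121). Without LDAH deletion replicate 3 it was 0.34. Without the libraries that stand apart (3 against 5) it was 0.67 ± 0.16 (edgeR adjusted p = 0.0278). MT-ND5 was then the only member called, where 1.74% of 12153 genes were called, 0.173% higher and 1.57% lower. In the same fit MT-ND2 had 0.44 ± 0.13 (adjusted p = 0.0803) and MT-ND4L 0.29 ± 0.11 (adjusted p = 0.201).

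All 7 members overlapped the control, where 1.08% of genes did not. MT-ND4 stood at 1599, 1061, 1570 and 692 CPM against 577 to 1383 CPM, with a log2 fold change of 0.37 ± 0.32. MT-ND4L stood at 490, 404, 422 and 822 CPM against 308 to 851 CPM, with 0.11 ± 0.33. Its sign turned to -0.18 when LDAH deletion replicate 4 was left out. MT-ND3 had 0.12 ± 0.17, MT-ND1 0.09 ± 0.19 and MT-ND6 0.25 ± 0.30.

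Against HPRT B, 0 of 7 members were called for the LDAH deletion by edgeR, DESeq2 or limma voom with sample quality weights. By edgeR 0% of genes were called, and 4.22% had an unadjusted p under 0.05 (0 members). DESeq2 and voom each called 0 of 11769 genes. MT-ND5 had 0.70 ± 0.36, MT-ND4 0.55 ± 0.37, MT-ND2 0.37 ± 0.20 and MT-ND1 0.25 ± 0.22, and the negative value was that of MT-ND6, at -0.24 ± 0.34. All intervals held 0, and all 7 members overlapped, where 2.28% of genes did not. Without the libraries that stand apart, 2 libraries of HPRT B were left and 0 members were called, where 0.634% of genes were.

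Among related genes in the LDAH deletion against negative control B, edgeR again called 0. All 6 other mitochondrial messengers had positive log2 fold changes, with a median of 0.22, among them MT-ATP8 (0.71 ± 0.46), MT-ATP6 (0.39 ± 0.40), MT-CO3 (0.28 ± 0.20) and MT-CYB (0.15 ± 0.23). The 37 nuclear complex I subunits had 18 positive and 19 negative values and a median of -0.00. NDUFC1 had -0.67 ± 0.25 and NDUFB3 -1.14 ± 0.46, with edgeR adjusted p of 0.971 and 0.990. Of the 9 mitochondrial transcription genes, 7 had negative values and the median was -0.37. TFB2M, the transcription initiation factor of mitochondria, had -1.80 ± 0.48 (edgeR adjusted p = 0.693), MTERF3 -1.04 ± 0.53, TFAM -0.37 ± 0.17 and TFB1M -0.24 ± 0.22. Of the 18 complex I assembly factors, NDUFAF8 had 0.37 ± 0.15 and COA1 -0.70 ± 0.32.

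**Figure D4:**
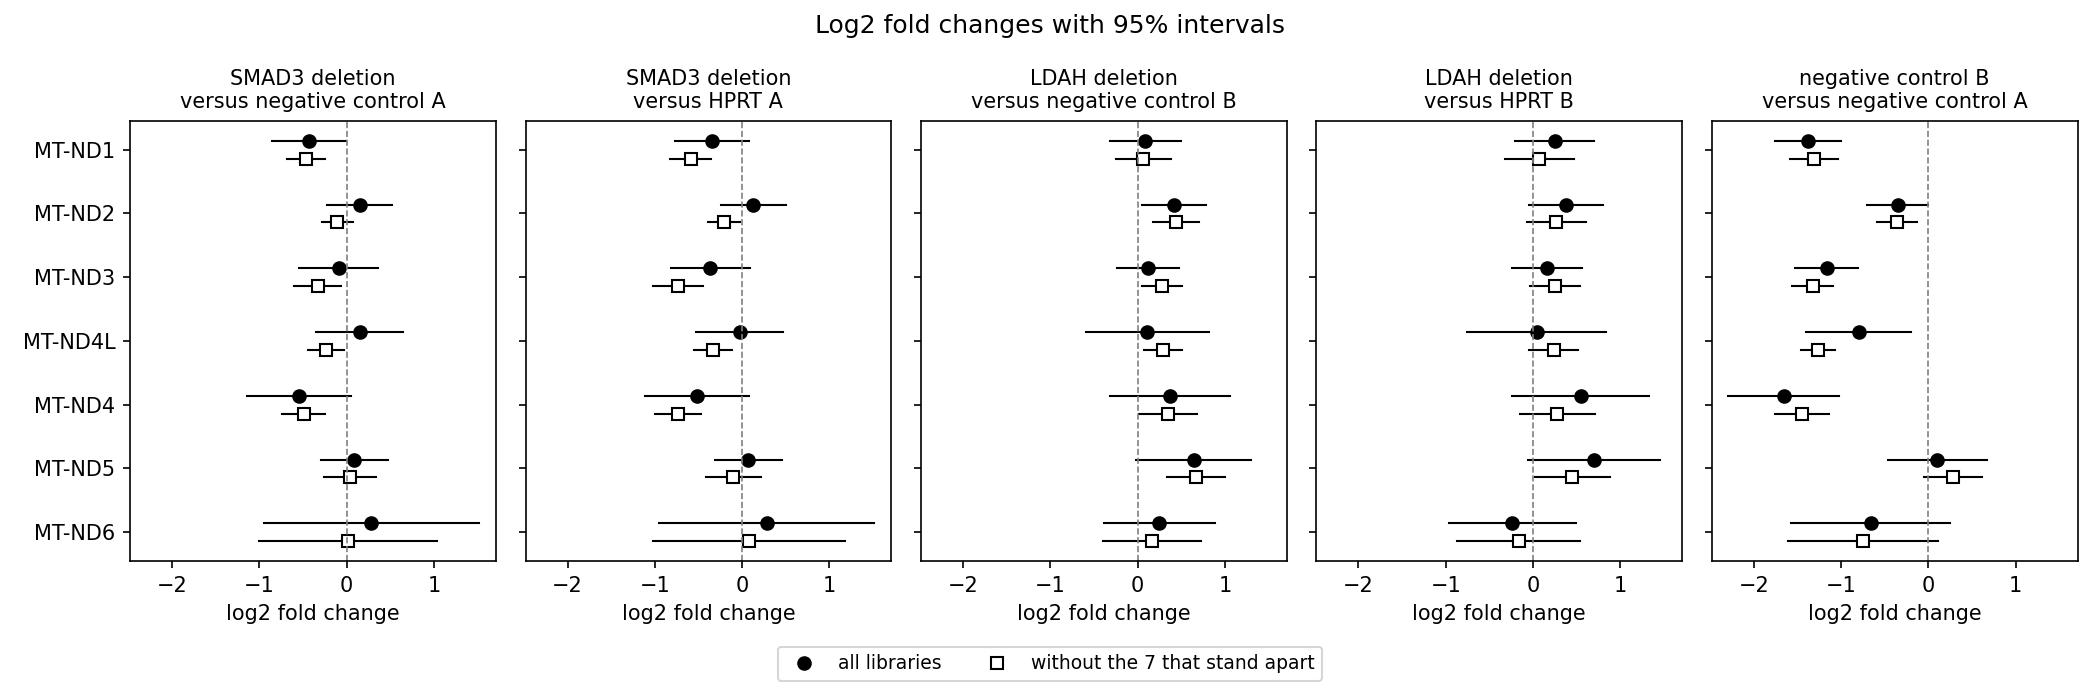
Log2 fold change (horizontal axis) with its 95% interval for each gene in 5 comparisons. Filled circles use all libraries and open squares leave out the 7 that stand apart. With all libraries, intervals lie below 0 between the control groups of the sets for 5 genes, all but MT-ND5 and MT-ND6. Most intervals are narrower when the 7 libraries are left out, which were picked by the same expression values, so the narrowing can come from that choice.

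The HPRT guide is the positive control for editing in both sets. In set A, 0 of 7 members were called by edgeR, where 0% of genes were called and 2.24% had an unadjusted p under 0.05. The log2 fold changes ran from -0.08 to 0.27, all 7 intervals held 0, and all 7 members overlapped, where 4.33% of genes did not. In set B, 0 of 7 were called, where 0% of genes were called and 1.75% had an unadjusted p under 0.05. The values ran from -0.18 to 0.48, and all 7 members overlapped, where 0.280% of genes did not.

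With both sets in 1 fit (8 against 11 libraries, the set as a covariate), the values ran from -0.13 to 0.26, with a median of 0.03. Again 0 members were called, where 0% of genes were called and 3.19% had an unadjusted p under 0.05. With all libraries, 0 members reached an unadjusted p under 0.05 by edgeR in these 3 comparisons. DESeq2 called 0 members in each, as did limma voom with sample quality weights. Over all genes, DESeq2 called 1 in set A, 0 in set B and 1 in both sets together. Voom called 0, 0 and 6. In set A the widest interval was that of MT-ND6, the least counted member, from -1.40 to 1.40. With the libraries that stand apart left out, 0 members were called in any of the 3, where 0.00864% (set A), 0% (set B) and 0.00825% (both sets) of genes were. There 2 members in set A and 1 in the fit of both sets had an unadjusted p under 0.05 by edgeR. The share of all genes under it was not worked out for these fits, so nothing is drawn from the counts.

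The effects themselves were compared in the fit of all 27 libraries. The HPRT effect in set B minus that in set A ran from -0.32 to 0.48 over the members, with 0 called by edgeR and 0 with an unadjusted p under 0.05, where 0% and 1.32% of genes did. DESeq2 and limma voom with sample quality weights called 0 members too, where they called 2 and 0 of 12055 genes. The SMAD3 deletion effect minus the LDAH deletion effect, each against its own negative control, ran from -0.93 to 0.02, with a median of -0.29 against -0.01 for all genes; 5 of the 7 values were negative. By edgeR 0 members were called and 0 had an unadjusted p under 0.05, where 0% and 3.64% of genes did. DESeq2 and limma voom with sample quality weights called 0 members, where they called 4 and 1 of 12055 genes. Without the libraries that stand apart the median of this difference was -0.53, with 0 members called and 0.550% of genes called, and 6 of the 7 had an unadjusted p under 0.05. By voom with all libraries 5 did. The share of all genes under that p was not worked out for either fit, so nothing is drawn from these counts.

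Across libraries, after centring on group means, some members varied together and others did not. Over the 27 libraries, which share their depth and scaling within each library, Pearson's r was 0.87 for MT-ND1 and MT-ND4, 0.81 for MT-ND4 and MT-ND5 and 0.71 for MT-ND1 and MT-ND2. MT-ND4L correlated negatively with its partner on the same messenger, MT-ND4, at -0.59, and with MT-ND5 at -0.57, but positively with MT-ND3, at 0.65. MT-ND6, from the other strand, had values between -0.26 and 0.26 with every other member. Some pairs differed by set: MT-ND5 and MT-ND6 had 0.57 over the 12 libraries of set A and -0.33 over the 15 of set B, and MT-ND4L and MT-ND5 had -0.05 and -0.70. These are descriptions without a test.

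Without the 7 libraries that stand apart, over 20 libraries, r was -0.03 for MT-ND4 and MT-ND4L and -0.04 for MT-ND4L and MT-ND5. MT-ND1 and MT-ND4 kept 0.89, and MT-ND2 and MT-ND4 had 0.81 in place of 0.49. MT-ND5 and MT-ND6, whose annotated ends meet, had 0.55 in place of 0.06.

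**Figure D5:**
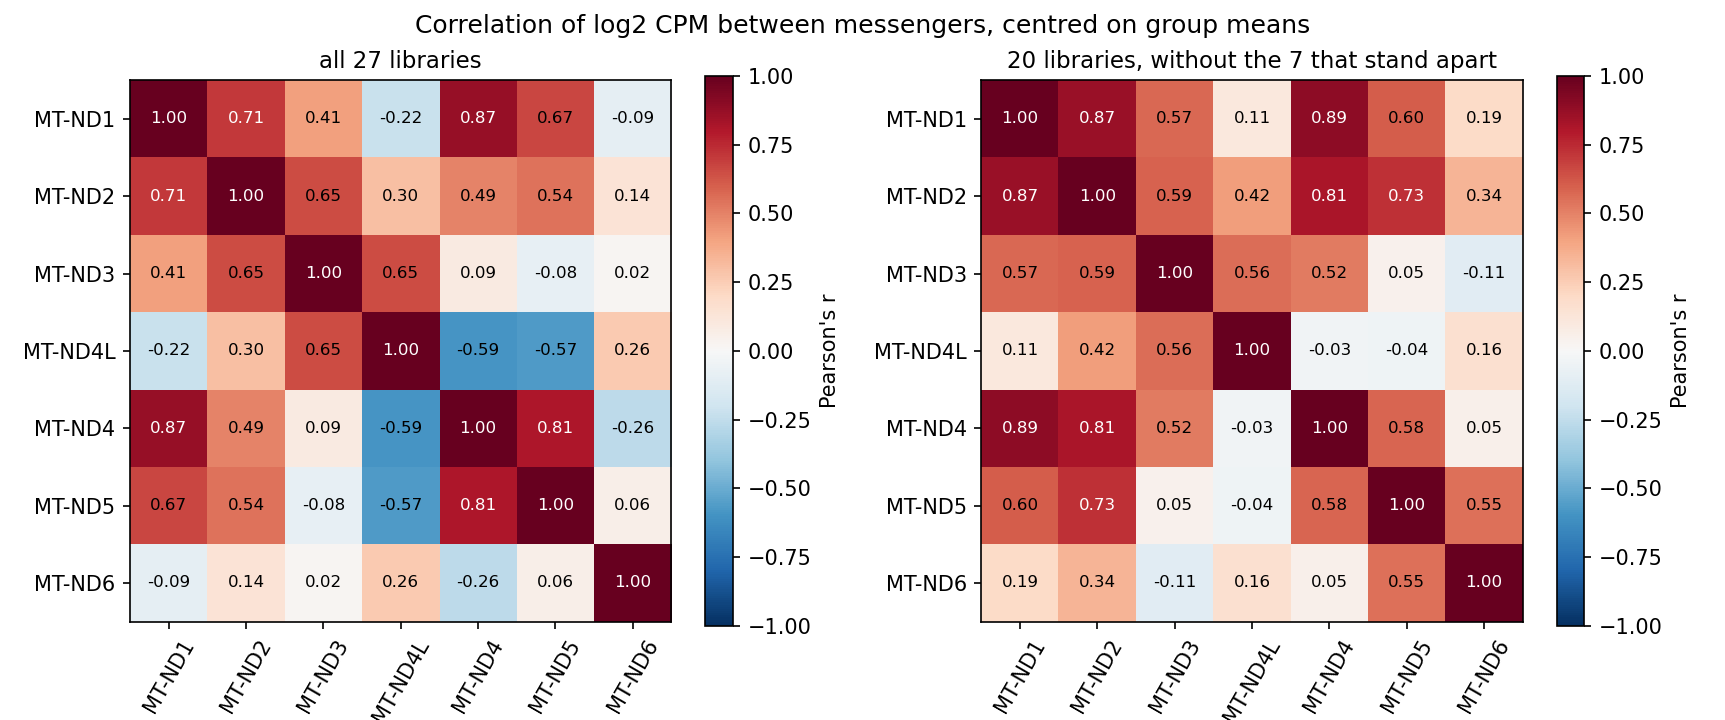
Pearson's r (colour and printed value, no unit) between the log2 CPM of each pair of genes after centring on group means. All 27 libraries are on the left and the 20 that do not stand apart on the right. The negative values of MT-ND4L with MT-ND4 and MT-ND5, -0.59 and -0.57, are -0.03 and -0.04 on the right.

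The genes whose pattern was most like the mean log2 CPM of the members were sought among 8460 genes with a mean of at least 10 CPM, by Pearson's r over the 27 centred libraries. The other mitochondrial messengers stood near the top, MT-CO3 in place 1 (r = 0.74), MT-CYB in 2 (0.70), MT-CO2 in 10 (0.59), MT-ATP6 in 20 (0.54), MT-CO1 in 22 (0.54) and MT-ATP8 in 37 (0.50). The nuclear genes with the highest r were OAS2 (0.68), ARRB1 (0.68), ACVRL1 (0.67), PRXL2A (0.63) and SIDT2 (0.62). OAS2 is an interferon-induced enzyme that senses double-stranded RNA, and ACVRL1 is the endothelial receptor ALK1 for BMP ligands. At the other end stood DEPDC1 (-0.69), SLC3A2 (-0.64), AIFM2 (-0.64), RPF2 (-0.64) and RNF149 (-0.63). SLC3A2 is a subunit of amino acid transporters, and AIFM2 encodes the NAD(P)H-dependent ubiquinone reductase FSP1. Among these nuclear genes, r differed most between the sets for OAS2 (0.45 in set A, 0.89 in set B) and SLC3A2 (-0.44 and -0.84). The genes named are the extremes of 8460, over libraries that include the 7 that stand apart, and no test was made.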

How the data were processed

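The authors deposited integer read counts per gene, unnormalised, for 14008 genes in 27 libraries, and all 27 count columns were used. Per the labels' protocols, libraries were made with the QuantSeq 3' FWD kit and sequenced single-end for 86 cycles. Of tools and builds, edgeR 3.24.3 and hg38 are listed, per the submitters' processing notes. For the aligner, the counter and the strand setting: not given in the sources used here. Symbols were matched for 13949 genes by current name and for 57 through GENCODE 29, and 2 had none. Counts were analysed with edgeR 4.0.16 (limma 3.58.1, R 4.3.3): filterByExpr, TMM, quasi-likelihood fits of group means, a two-sided test and Benjamini-Hochberg adjustment at 0.05 over all genes tested, within set A, within set B, over both control treatments with the set as covariate, or over all 27 libraries. SEs are the log2 fold change divided by the square root of F, and intervals are 95% by the t distribution. Displayed CPM use 1 TMM scaling of all libraries. Exact permutation tests used log2 CPM with a prior count of 2. Libraries stand apart where their median correlation lies over 3 scaled median absolute deviations below that of their set. DESeq2 1.42.0 and limma voom with sample quality weights were alternatives, beside those in the closing section. Scripts were checked on simulated data.

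Members and gene lists were chosen with earlier results of these data known. Genes named are the 7 members, the targets, up to 4 genes of each related list by smallest p in the 2 deletion comparisons, and the genes with the highest and lowest 5 correlations with the members' mean. Reads carry no molecular identifiers, so counting precision is an upper limit. Chi-square per degree of freedom between libraries of a group was 3.04 to 78.9, well above sampling noise. The labels number the libraries 10 to 13 (SMAD3 deletion), 26 to 33 (other groups of set A), 50 to 54 (LDAH deletion) and 55 to 67, without saying what the number means.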

Additional observations from a re-analysis of the deposited data

Results flagged for a closer look

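Within groups of 4 to 7 libraries, 54 combinations of a member or ratio and a group were examined for a library far from the others, and 3 were picked out, where about 1 in 20 would be by chance. MT-ND2 stood at 3467 CPM in SMAD3 deletion replicate 4, against 1878 to 2033 CPM in the other replicates. The ratio of MT-ND4L to MT-ND4 counts was 1.005 in HPRT A replicate 3, against 0.228 to 0.293 in the other replicates, and 1.19 in LDAH deletion replicate 4, against 0.269 to 0.381. All 3 libraries are among those that stand apart. Their share of counts from ribosomal protein genes was 14.96% to 17.4% over the 7 such libraries, and its part in these values was not tested.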

How the results depend on the processing

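Alternatives were another tool, other scalings and filters, other sets of libraries in the fit, and leaving out each library or all 7 that stand apart. Values are log2 fold changes, and the cause of each change was not tested. Without the libraries that stand apart, the members called numbered 1 (LDAH deletion against negative control B), 3 (SMAD3 deletion against HPRT A) and 5 (negative control B against A). Limma voom with sample quality weights called 5 in the last and 0 elsewhere. In the last it called 3639 of 12055 genes, 1947 of them lower. In the other 7 comparisons 0 members were called under any alternative run.

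The median over the members was -1.19 by voom and -1.27 without the libraries that stand apart for negative control B against A, -0.30 and -0.33 for SMAD3 deletion against HPRT A, and -0.20 and -0.24 for SMAD3 deletion against negative control A. It was -0.58 by voom for the SMAD3 minus the LDAH deletion effect. With single libraries left out it ran from -0.54 to -0.17 for that difference, from -0.37 to 0.055 for SMAD3 deletion against HPRT A and from -0.22 to 0.16 against negative control A. SMAD3 deletion replicate 4 gave the lowest value in each.

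Signs turned for members that were not called. For SMAD3 deletion against HPRT A, MT-ND2 had -0.13 by voom and -0.21 without the libraries that stand apart, MT-ND5 -0.026 and -0.10, and MT-ND4L 0.015 with library totals only. Against negative control A, MT-ND2 had -0.080 and -0.11, MT-ND4L -0.20 and -0.24, and MT-ND6 -0.10 by voom. With single libraries left out, SMAD3 deletion against HPRT A ran from -0.12 to 0.22 for MT-ND2, -0.40 to 0.13 for MT-ND4L, -0.049 to 0.27 for MT-ND5 and -0.0093 to 0.67 for MT-ND6. Against negative control A the ranges were -0.091 to 0.24 for MT-ND2, -0.32 to 0.028 for MT-ND3, -0.22 to 0.30 for MT-ND4L and -0.040 to 0.64 for MT-ND6. LDAH deletion against HPRT B ran from -0.25 to 0.37 for MT-ND4L and -0.41 to 0.094 for MT-ND6, and against negative control B from -0.18 to 0.30 for MT-ND4L. For HPRT against negative control, signs turned in 10 of 70 member values (set A), 6 of 70 (set B) and 7 of 63 (both sets) under the alternatives. The difference of HPRT effects had 2 of 63 and that of deletion effects 4 of 63. With single libraries left out, these were 15 of 84, 12 of 105, 10 of 133, 21 of 133 and 13 of 133, in the same order.

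Scaling by library totals alone put the median of all genes at 0.14 for negative control B against A, where 3 members were still called. Over all genes, DESeq2 called 14 and voom 2 for SMAD3 deletion against negative control A, where edgeR called 0. No paired analysis was possible because the labels share no replicate numbers between groups; a block of adjacent label numbers, whose meaning is not stated, was not run. MT-ND6, counted 42 to 442 times, is the member that depth limits most.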

Other observations

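The other bicistronic messenger of human mitochondria, that of MT-ATP8 and MT-ATP6, was described in the same way after the member values were seen. In set A the ratio of MT-ATP8 to MT-ATP6 counts was 0.649 and 0.786 in the 2 libraries that stand apart and 0.291 to 0.779 in the other 10. In set B it was 0.653 to 1.10 in the 5 libraries that stand apart and 0.796 to 1.24 in the other 10. Both ranges overlapped, unlike those of MT-ND4L and MT-ND4. MT-CO1 and MT-CO2, subunit genes of complex IV on separate messengers, did separate the libraries within each set: MT-CO1 had 0.422 and 0.476 counts per MT-CO2 count against 0.203 to 0.336 in set A, and 1.002 to 1.498 against 0.465 to 0.863 in set B. No test was made, since the libraries were set apart by expression across all genes.

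For MT-ND6 in set A, HPRT A libraries had levels near those of the negative control A library with the next higher label number, but not with the next lower. HPRT A and negative control A gave 27.7 and 21.4 CPM for numbers 26 and 27, 58.8 and 57.6 CPM for 28 and 29, 40.1 and 50.2 CPM for 30 and 31, and 10.1 and 8.06 CPM for 32 and 33. Pairs that are adjacent the other way gave 58.8 and 21.4 CPM for 28 and 27, 40.1 and 57.6 CPM for 30 and 29, and 10.1 and 50.2 CPM for 32 and 31. Over 11467 genes, the deviations from group means correlated by 0.14, 0.04, -0.08 and -0.01 in the pairs with the next higher control number. In all other pairs they correlated by -0.14 to 0.14. Adjacent numbers of set B were not compared in this way. The levels were picked out after the values were known and were not tested.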
